A study of Mus musculus with 29 samples.

Results

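The colon of untreated mice that lack mature B and T cells was compared with the colon of untreated wild-type mice. Members were chosen by the untreated group named in each sample's labels, which gave 9 mice of the 29 in the series: 3 labelled wild-type on a Balb/C background, 3 labelled Rag1-/- on a C57BL/6 background, and 3 labelled Rag2-/- on a Balb/C background. None of the 9 received an agent, and age and sex are not given in the sources used here. The other 20 mice belong to 6 colitis models, and they enter below where they place a transcript across the series: DSS, DNBS and IL-10 deficiency by antibody, all labelled Balb/C with an intact Rag system; T-cell transfer (TCT), labelled C57BL/6 Rag1-/- recipients of naive CD4 T cells; anti-CD40, labelled C57BL/6 Rag1-/-; and TRUC, labelled Balb/C Tbx21-/- x Rag2-/-. The sources differ on some of these mice. The study's methods give C57Bl6 for DSS and describe Il10-/- mice where the labels give IL-10 antibodies. The treatment text in the labels gives Rag2-/- for the TCT recipients. Poly(A) RNA from colon segments was sequenced and counted per gene, and each mouse gave 1 library. Nothing in the sources used here says whether the mice of a group shared a cage or a litter.

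RAG1 and RAG2 together cut DNA at the V, D and J segments of the immunoglobulin and T-cell receptor loci, and without either protein no antigen receptor can be assembled, so that B and T cells stop developing before they leave the bone marrow and thymus. In the healthy colon B cells sit in lymphoid follicles, IgA plasma cells fill the lamina propria, and T cells lie in both the lamina propria and the epithelium. Innate lymphoid cells, NK cells, macrophages and dendritic cells do not need recombination. The comparison asks which transcripts the uninflamed colon lost or gained in Rag-deficient mice, and which differences followed the genetic background instead. Levels are CPM, the counts of a gene relative to the library's total after TMM scaling, fold changes are the fitted log2 change of edgeR's quasi-likelihood test with its standard error (SE), and a gene was called where its Benjamini-Hochberg adjusted p over all 18616 genes tested was below 0.05.

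The 9 libraries held 10725564 to 13524777 counts (median 11775182), at which 3 counts correspond to 0.200 to 0.266 CPM. Replicate mice differed by more than sampling noise in all 9 within-group pairs (chi-square per degree of freedom 3.42 to 15.0), and no library was a copy of another. All 9 libraries held Xist and had no count of Ddx3y. Of the genes tested, 868 were higher (4.66%) and 1310 lower (7.04%) in the 6 Rag-deficient than in the 3 wild-type mice, 2178 in all (11.7%), and the mice did not overlap for 760 and 1216 of them. Without any test, all 6 Rag-deficient mice lay above all wild-type mice for 9.44% of genes and below them for 11.4%. Among called genes, 883 fell and 392 rose by over 2-fold. Against the same wild-type mice, 1510 genes (8.11%) were called in Rag2-/- colon, 605 higher (3.25%) and 905 lower (4.86%), and 2038 (10.9%) in Rag1-/- colon, 888 higher (4.77%) and 1150 lower (6.18%). These counts depended on the fit and on single mice. With the 9 untreated mice fitted alone 1650 genes were higher and 2256 lower, and with DESeq2 1764 and 2066. In the fit of all mice 479 genes were higher without wild-type mouse 1 and 472 without wild-type mouse 2.

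The labels were checked first. H2-Ea encodes the alpha chain of the class II molecule I-E (annotated as H2-Ea-ps, chr17:34341959-34344645, GRCm38), and it is not transcribed in C57BL/6 mice, which carry a deletion in its promoter, but is transcribed in BALB/c mice. H2-Ea-ps stood at 0.0762, 0 and 0 CPM in wild-type mice, at 78.5, 74.5 and 67.7 CPM in Rag1-/- mice and at 69.4, 82.2 and 110 CPM in Rag2-/- mice. Across the series 16 mice (wild-type, DSS, DNBS, IL-10 deficiency and TCT) held at most 0.104 CPM, and 13 mice (Rag1-/-, Rag2-/-, TRUC and anti-CD40) held 67.7 to 318 CPM. The level of H2-Ea-ps therefore went against the Balb/C label of the wild-type mice and against the C57BL/6 label of the Rag1-/- mice. Pla2g2a, a secreted phospholipase that is disrupted in C57BL/6 and intact in BALB/c mice, stood at 0.762, 0.799 and 0.902 CPM in wild-type mice and at 63.4 to 217 CPM (median 102) in the Rag-deficient mice. In TCT mice, where H2-Ea-ps had no count, Pla2g2a stood at 23 to 67.0 CPM, so the pair did not give the same split there. Ighg2c, the IgG2c constant gene that C57BL/6 mice carry and BALB/c mice lack, was present in wild-type mice at 0.0762, 4.93 and 18.2 CPM and had no count in the 6 Rag-deficient mice, where every immunoglobulin gene was low. Of 7 genes tested that are known to differ between these strains 4 were called higher, namely H2-Ea-ps, Pla2g2a, Gbp2b and Ifi202b. Ighg2c was called lower and 2 were not called. The rest of the list of 8 was Nnt, H60a and Klra2, not all of them tested. With the 9 untreated mice fitted alone 4 of the 7 were higher and 2 lower.

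**Figure D1:**
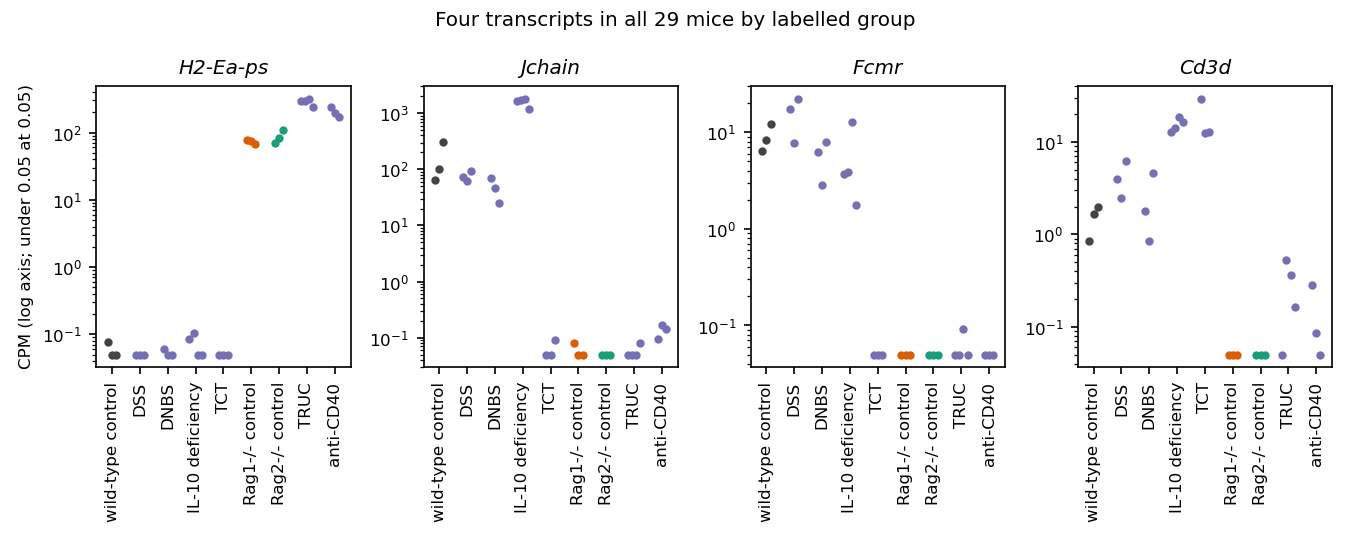
Levels of H2-Ea-ps, Jchain, Fcmr and Cd3d in all 29 mice, 1 point per mouse, in CPM on a log axis with values under 0.05 drawn at 0.05; groups are the labelled groups, with the 3 untreated groups in grey, orange and green and the colitis models in purple. H2-Ea-ps lay at or below 0.104 CPM in 16 mice and between 67.7 and 318 CPM in 13 mice, while in TCT mice Cd3d was at 12.5 to 29.3 CPM and Fcmr at 0.

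The recombinase genes did not settle the genotype. Rag2 (chr2:101624718-101632529) stood at 0.0762, 0 and 0 CPM in wild-type mice, at 1.30, 0.442 and 1.72 CPM in mice labelled Rag1-/-, and at 2.21, 1.30 and 1.13 CPM in mice labelled Rag2-/-. Its 1 count in wild-type colon gives a ratio of 54.5 with a 95% counting interval of 9.78 to 2152, and it was called higher (adjusted p = 0.000159). Rag1 was at most 0.295 CPM in the 9 mice and reached 1.85 to 2.88 CPM only in TCT mice. Which part of either gene the reads covered cannot be read from gene counts, so neither gene checks its own deletion. In what follows the groups keep their labelled names, and because the H2-Ea-ps level separated the wild-type mice from all 6 Rag-deficient mice, genotype and background cannot be told apart in the comparison with wild-type.

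Antigen receptor transcripts were looked at next. Immunoglobulin and T-cell receptor genes took 0.0616%, 0.0864% and 0.190% of the counts in the wild-type mice and 0.000720% to 0.00144% in the Rag-deficient mice. The summed level of all 348 immunoglobulin V segments was 127 to 448 CPM in wild-type colon and 0 in each of the 6 Rag-deficient mice. Of the 142 V segments tested 85 were called lower (59.9%), 61 to 76 with 1 mouse left out, and none was called higher. Across all 167 antigen receptor genes tested, 102 were called lower and 0 higher. The 4 T-cell receptor V segments that passed the filter on low counts were not called. The summed level of all 175 T-cell receptor V segments was 1.56 to 1.80 CPM in wild-type and 0.177 to 0.442 CPM in Rag-deficient mice.

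The immunoglobulin constant genes and Jchain fell to near 0 for the most part. Igha (chr12:113254830-113260236), the constant region of the IgA heavy chain, stood at 228, 340 and 810 CPM in wild-type mice, at 1.22, 1.18 and 1.29 CPM in Rag1-/- mice and at 0.531, 0.765 and 1.81 CPM in Rag2-/- mice. No Rag-deficient mouse came near the wild-type range, and the change was -8.64 (SE 0.40, adjusted p = 1.49e-14). Igkc, the kappa light chain constant region, stood at 111, 162 and 370 CPM in wild-type mice and gave 1 count in the 6 Rag-deficient mice together, a ratio of 16116 with a counting interval of 2892 to 636527. Jchain (chr5:88519809-88527891) encodes the joining chain of polymeric IgA, and it went from 64.4, 99.8 and 310 CPM to 1 count in all 6 mice, a ratio of 11870 (2130 to 468826). Wild-type mouse 4 held the highest level of Igha, Igkc and Jchain, and their spread within wild-type colon was far below the distance to the Rag-deficient mice.

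Ighm and Ighd, the constant regions that naive B cells use, differed in how much remained. Ighm stood at 36.0, 43.5 and 55.7 CPM in wild-type mice, at 2.43, 3.61 and 3.27 CPM in Rag1-/- mice and at 5.58, 3.90 and 6.95 CPM in Rag2-/- mice, a change of -3.44 (SE 0.39, adjusted p = 5.61e-07). Ighd was at 18.9, 21.5 and 27.8 CPM in wild-type colon and at 0 to 0.529 CPM (median 0.113) in Rag-deficient colon, a change of -7.70 (SE 0.63, adjusted p = 1.73e-09). All 11 immunoglobulin constant genes tested were called lower, 10 or 11 with 1 mouse left out, with a median change of -7.70 beside 0.01 for all genes. With genes that had no count in a group set at their bound the median was -5.25.

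B-cell genes fell as a group: of 20 tested, 19 were called lower and 0 higher, against 7.04% lower among all genes, and the median change was -5.20 (-5.13 at the bounds). Fcmr (chr1:130865669-130880791), the Fc receptor for IgM, stood at 6.33, 8.39 and 12.2 CPM in wild-type mice and had no count in any of the 6 Rag-deficient mice, at least 37.3-fold lower against a floor of 3 counts per library. Cd79a, the signalling chain of the B-cell receptor, stood at 25.7, 24.8 and 39.9 CPM in wild-type mice and at 0 to 0.354 CPM (median 0.251) in Rag-deficient mice, a change of -7.12 (SE 0.61, adjusted p = 4.03e-09). In bulk tissue, fewer cells of a type and less RNA per cell cannot be told apart.

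Cr2, the complement receptor of follicular B cells, was at 9.83, 13.2 and 15.9 CPM in wild-type mice and 0 to 0.443 CPM in Rag-deficient mice (change -7.08, SE 0.74, adjusted p = 1.20e-07). Pax5, the transcription factor that holds B-cell identity, was at 4.72, 5.93 and 9.43 CPM and gave 2 counts in 6 mice, a ratio of 251 (69.6 to 2077). Fcer2a (CD23) was at 9.53, 11 and 16.2 CPM and gave 1 count, a ratio of 920 (165 to 36357). Not every gene of the list was emptied. Ms4a1 (CD20) kept 0.295 to 0.708 CPM in the Rag-deficient mice from 12.0, 11.4 and 16.8 CPM, and Cd37, a tetraspanin of mature lymphocytes, kept 2.30 to 3.70 CPM from 19.2, 22.4 and 31.8 CPM (change -3.13, SE 0.33, adjusted p = 1.82e-07). Ebf1 was called at the edge of the threshold (change -1.04, SE 0.34, adjusted p = 0.0483) and lost its call without any 1 of 6 mice, among them each of the wild-type mice, with adjusted p up to 0.190. Spib, which M cells of the epithelium also express, stood at 9.75, 12.4 and 22.5 CPM in wild-type and at 8.06 to 12.9 CPM in Rag-deficient colon and was not called (adjusted p = 0.693).

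Of 15 plasma-cell genes tested 8 were called lower, beside 7.04% of all genes, and 0 higher (median change -1.78). Only 5 were lower without wild-type mouse 4. Mzb1, an endoplasmic reticulum chaperone of antibody assembly, was at 2.67, 4.2 and 8.69 CPM in wild-type mice and gave 1 count in the Rag-deficient mice, a ratio of 390 (69.9 to 15389). Pou2af1, the B-cell coactivator OBF-1, was at 5.56, 8.46 and 15.6 CPM and gave a ratio of 247 (84.6 to 1198). Irf4 stood at 4.57, 5.73 and 7.55 CPM in wild-type colon and kept 0.884 to 1.59 CPM (change -2.26, SE 0.36, adjusted p = 6.80e-05). Tnfrsf17 (BCMA) was lower by a ratio of 7.17 (3.48 to 17.8) but lost its call without wild-type mouse 4 (adjusted p = 0.101). Xbp1, needed by secretory cells of every kind, was at 192, 207 and 206 CPM in wild-type and 202 to 249 CPM in Rag-deficient colon and was not called (adjusted p = 0.452). Sdc1, which colonocytes carry as well, was at 163, 157 and 243 CPM against 151 to 278 CPM and was not called (adjusted p = 0.508).

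The epithelial side of IgA secretion showed no called change. Pigr, the receptor that carries polymeric IgA across the epithelium, stood at 3145, 3508 and 3382 CPM in wild-type mice and at 3355 to 3785 CPM (median 3595) in Rag-deficient mice. The groups overlapped, and the change was 0.09 (SE 0.18, adjusted p = 0.813). Of 9 tested genes of IgA transport and induction none was called.

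T-cell genes started from a much lower level. Cd3d (chr9:44981786-44987339), a chain of the CD3 complex, stood at 0.838, 1.67 and 1.97 CPM in wild-type mice and had no count in the Rag-deficient mice, at least 6.19-fold lower. Cd3g was at 1.52, 1.73 and 2.46 CPM in wild-type and 0 to 0.295 CPM in Rag-deficient mice (change -3.39, SE 0.56, adjusted p = 0.000110). Trac, the constant region of the receptor alpha chain, was at 1.22, 1.2 and 1.15 CPM and gave 3 counts in 6 mice, a ratio of 29.8 (10.2 to 144). Cd8a was at 1.30, 0.799 and 1.64 CPM with a ratio of 31.2 (10.7 to 151), and Cd5 was at least 3.84-fold lower.

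Of 24 genes of the T-cell receptor and its co-receptors 16 were called lower and 0 higher, beside 7.04% lower among all genes. The median change was -2.40 (-2.13 at the bounds). The other 8 were not called, and 13 to 17 were lower with 1 mouse left out. Cd4, which macrophages and lymphoid tissue inducer cells also carry, stood at 5.79, 5.06 and 9.10 CPM in wild-type and at 2.21 to 5.66 CPM in Rag-deficient colon and was not called (change -0.86, SE 0.34, adjusted p = 0.117). Lck, one of the 16 called and a kinase that NK and innate lymphoid cells use too, was at 5.33, 2.80 and 7.22 CPM against 1.38 to 2.84 CPM (change -1.29, SE 0.33, adjusted p = 0.00923), a call that was lost without wild-type mouse 4 (adjusted p = 0.110). Outside that list, Thy1 was at 31.9, 37.0 and 28.1 CPM against 21.2 to 36.6 CPM, with overlapping groups (adjusted p = 0.818). Foxp3, the factor of regulatory T cells, was near the floor of detection in both groups, at 0.305, 0.266 and 0.164 CPM in wild-type and 0 to 0.442 CPM in Rag-deficient mice, and a difference was not detectable at this depth. Of 15 helper and regulatory T-cell genes tested only Tnfrsf18 (GITR) was called (change -1.03, SE 0.27, adjusted p = 0.0101), and without wild-type mouse 1 or 2 it was not (adjusted p up to 0.0972).

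**Figure D2:**
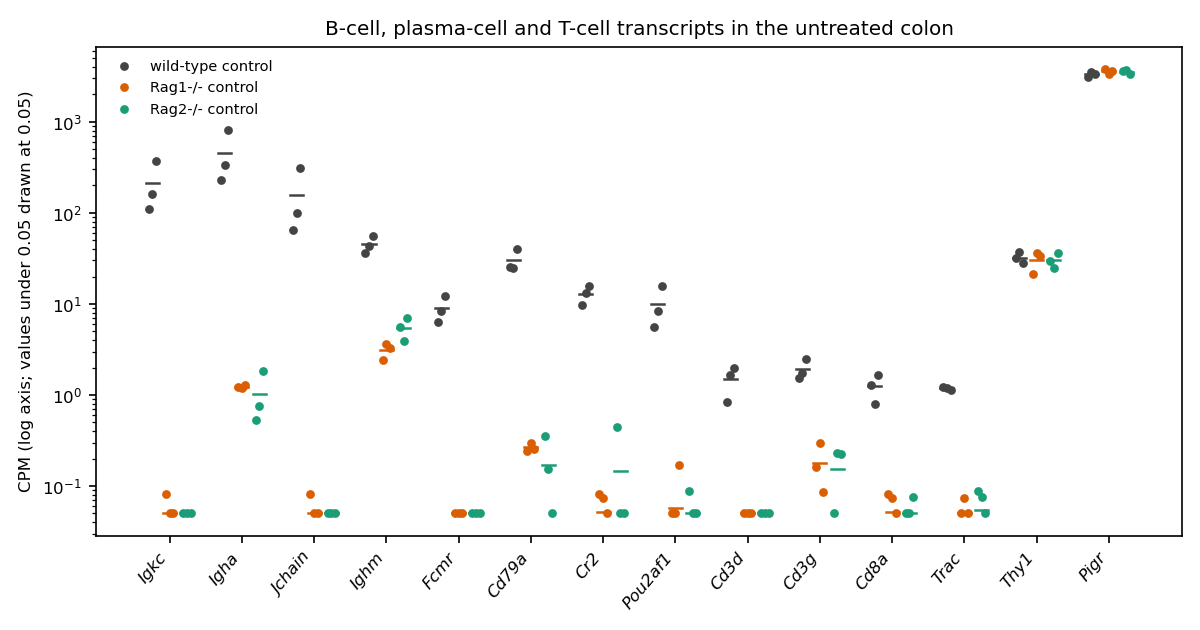
CPM of 14 transcripts in the 9 untreated mice on a log axis, 1 point per mouse and a bar at each group's mean, with wild-type in grey, Rag1-/- in orange, Rag2-/- in green and values and means under 0.05 drawn at 0.05. Immunoglobulin, B-cell and T-cell genes separated the wild-type mice from both Rag-deficient groups, from Igkc at 111 to 370 CPM to Cd3d at 0.838 to 1.97 CPM, whereas Thy1 and Pigr overlapped.

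Few genes were called in the lists of innate lymphoid cells and of cytotoxic, NK and intraepithelial lymphocytes. The latter list is not limited to cells that need no recombination, since T cells also lie in the epithelium. Of 21 innate lymphoid cell genes tested only Il2rg, the common gamma chain that T and B cells also carry, was called lower (change -1.13, SE 0.36, adjusted p = 0.0412), beside 7.04% of all genes. It was not called without any 1 of 8 of the mice. Of 22 cytotoxic, NK and intraepithelial lymphocyte genes 2 were called, both higher, beside 4.66% of all genes. Ncr1, the NK receptor NKp46, stood at 0.457, 0.133 and 0.164 CPM in wild-type and 0.861 to 1.66 CPM in Rag-deficient mice (change 2.26, SE 0.69, adjusted p = 0.0340). Itgae, the integrin that binds E-cadherin, was at 5.41, 3.33 and 3.61 CPM against 5.84 to 9.06 CPM (change 0.85, SE 0.24, adjusted p = 0.0199). The groups did not overlap for either gene. Both calls were lost without wild-type mouse 2, wild-type mouse 4 or Rag2-/- mouse 4, and that of Ncr1 also without Rag1-/- mouse 2 or 3 (adjusted p up to 0.187 for Ncr1 and 0.158 for Itgae). The 22 genes summed to 13.2 to 17.1 CPM in wild-type, 14.5 to 18.3 CPM in Rag1-/- and 11.1 to 20.7 CPM in Rag2-/- mice. With the 9 untreated mice alone, 13 of these 22 and 17 of the 21 innate lymphoid cell genes passed the filter on low counts. A change in the others was not detectable at this depth.

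Lymphoid follicle and homing genes fell in part. Of 18 tested, 7 were called lower, beside 7.04% of all genes, and 0 higher (median change -1.33). Only 3 to 4 were called without any 1 of the wild-type mice, Rag1-/- mouse 2 or 4, or Rag2-/- mouse 1 or 2. Ltb, the lymphotoxin that organises follicles, stood at 7.39, 9.46 and 13.9 CPM in wild-type and 2.24 to 5.74 CPM in Rag-deficient mice (change -1.64, SE 0.34, adjusted p = 0.00151). Glycam1, a mucin-like glycoprotein of high endothelial venules, was at 8.08, 7.39 and 9.60 CPM against 0.842 to 2.41 CPM (change -2.29, SE 0.57, adjusted p = 0.00740). Both kept their calls with each mouse left out. Cxcl13, the chemokine that draws B cells into follicles and that stromal cells make, was at 9.98, 11.3 and 13 CPM against 4.78 to 11.4 CPM and was not called (adjusted p = 0.328).

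Most MHC class II genes tested were called lower. Class II molecules present peptides to CD4 T cells, B cells and dendritic cells carry them, and the coactivator CIITA drives all of them through a shared promoter module of S, X and Y boxes. Of 11 genes tested, 9 were called lower and 0 higher (7.04% lower among all genes), 7 to 9 with 1 mouse left out, and the median change was -1.42. RefSeq (GRCm38.p6) promoter windows, 250 bases before to 50 after the start, were searched for 8 of the 11. H2-Ab1, Cd74 and Ciita had no window in the search. Listed genes on 1 chromosome were left out of this and the next motif search, while the share over all windows kept that chromosome. The core of the Y box, searched as TGATTGG or CCAATCA on either strand, was found in 7 of these 8 and in 7.82% of all 32851 windows. The 120 bases before the annotated start are shown for 5 of the genes called lower, with the Y box core in capitals, because this element is what the promoters of the group share by letters. They lie at chr17:34287824-34287943 (minus strand) for H2-Aa and, on the plus strand, at chr17:34305747-34305866 for H2-Eb1, chr17:34153071-34153190 for H2-DMb1, chr17:34092259-34092378 for H2-Oa and chr17:34238785-34238904 for H2-Ob. The core starts 50, 61, 63, 45 and 59 bases before the gene in that order. The sequence is that of the reference strain C57BL/6J, and a match describes letters, not binding.
H2-Aa: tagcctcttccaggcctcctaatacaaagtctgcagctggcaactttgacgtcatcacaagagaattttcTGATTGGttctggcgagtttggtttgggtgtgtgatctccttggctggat
H2-Eb1: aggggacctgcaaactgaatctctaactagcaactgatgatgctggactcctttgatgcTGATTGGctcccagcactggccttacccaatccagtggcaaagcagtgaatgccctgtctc
H2-DMb1: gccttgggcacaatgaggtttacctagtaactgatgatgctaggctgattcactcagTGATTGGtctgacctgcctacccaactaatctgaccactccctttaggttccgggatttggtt
H2-Oa: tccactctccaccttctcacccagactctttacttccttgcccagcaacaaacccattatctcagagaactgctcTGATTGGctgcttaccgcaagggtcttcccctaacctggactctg
H2-Ob: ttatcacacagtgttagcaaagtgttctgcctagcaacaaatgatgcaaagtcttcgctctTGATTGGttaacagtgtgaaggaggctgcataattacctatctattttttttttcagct

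Among the classical chains, H2-Aa stood at 159, 162 and 171 CPM in wild-type mice, at 73.7, 66.9 and 64.2 CPM in Rag1-/- mice and at 54.3, 62.1 and 92.4 CPM in Rag2-/- mice, a change of -1.25 (SE 0.32, adjusted p = 0.00880). H2-Ab1 stood at 127, 162 and 196 CPM in wild-type mice and 47.5 to 87.6 CPM in Rag-deficient mice (change -1.42, SE 0.29, adjusted p = 0.00105). H2-Eb1 changed by -0.96 (SE 0.27, adjusted p = 0.0201) from 150, 168 and 174 CPM to 61.3 to 112 CPM, and it was not called without wild-type mouse 2 or 4 or Rag2-/- mouse 1 (adjusted p up to 0.0720). The wild-type mice lay above all Rag-deficient mice for all 3 chains.

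The other genes of the list ranged from H2-Ob and H2-Eb2, with large falls, to H2-DMa and Cd74, which were not called. H2-Ob, the beta chain of H2-O, an inhibitor of loading found mainly in B cells, went from 14.3, 18.2 and 23.5 CPM to 0.892 to 2.34 CPM (change -3.72, SE 0.50, adjusted p = 6.99e-06). H2-Eb2 went from 3.73, 5.86 and 7.79 CPM to 0 to 0.172 CPM, a ratio of 72.6 (33.3 to 198). H2-DMb1, a chain of the loading factor H2-M, stood at 12.7, 12.9 and 12.9 CPM in wild-type mice and at 1.2 to 2.28 CPM in Rag-deficient mice (change -2.87, SE 0.43, adjusted p = 2.86e-05). Its near copy H2-DMb2, with which it may share reads, changed by -2.04 (SE 0.42, adjusted p = 0.00142). H2-DMa, the other H2-M chain, was at 12.1, 15.6 and 16.2 CPM against 6.11 to 10.2 CPM and was not called (change -0.79, SE 0.33, adjusted p = 0.130). It was the only gene searched that had no Y box core in its window, and Cd74 was not searched. Cd74, the invariant chain, was at 140, 160 and 204 CPM against 77.1 to 160 CPM and was not called (adjusted p = 0.241). Ciita itself changed by -1.39 (SE 0.40, adjusted p = 0.0201), from 9.22, 11.7 and 14.4 CPM to 3.28 to 6.12 CPM, and lost its call without wild-type mouse 2 or 4 (adjusted p up to 0.0960). Of the genes in this list Cd74 and Ciita lie elsewhere, and the others lie on chromosome 17 in the same region as H2-Ea-ps, whose level separated the groups. Whether reads of these others were counted equally well on both sides of that split was not tested.

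Among the lists of lymphocyte genes the octamer ATGCAAAT, searched with its reverse ATTTGCAT, was in the window of 1 of 15 B-cell genes, Vpreb3, and in 0 of 13 plasma-cell genes and 0 of 11 T-cell genes, beside 1.74% of all windows.

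Of 18 macrophage genes tested 9 were called lower, beside 7.04% of all genes, 0 higher and 9 not called (median change -0.85), and 6 to 10 were called with 1 mouse left out. Adgre1 (F4/80) stood at 23.6, 32.2 and 19.5 CPM in wild-type mice, 5.35, 11.8 and 8.52 CPM in Rag1-/- mice and 9.83, 11.6 and 12.8 CPM in Rag2-/- mice (change -1.34, SE 0.20, adjusted p = 3.47e-05). Cd163, the haemoglobin scavenger receptor of resident macrophages, was at 21, 25.8 and 18.6 CPM in wild-type mice, at 1.95, 5.16 and 3.79 CPM in Rag1-/- mice and at 8.68, 9.18 and 12.8 CPM in Rag2-/- mice (change -1.84, SE 0.36, adjusted p = 0.000814). For Cd163 the Rag2-/- mice lay between the other groups and were not called against wild-type on their own (adjusted p = 0.135), and the difference between the Rag-deficient groups did not pass its test (adjusted p = 0.162).

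C1qb, a chain of the complement component C1q that macrophages make, went from 60.7, 72.7 and 56.4 CPM to 20.3 to 41.2 CPM (change -1.2, SE 0.18, adjusted p = 3.81e-05). Mrc1, the mannose receptor, went from 51.9, 60.1 and 45.5 CPM to 15.4 to 34.4 CPM (change -1.09, SE 0.25, adjusted p = 0.00443). Csf1r, the receptor of macrophage growth factor, changed by -0.91 (SE 0.23, adjusted p = 0.00960) and was not called without wild-type mouse 2 (adjusted p = 0.0712). Among all genes 7.04% were called lower. Of 14 dendritic cell genes 3 were called lower, Cd209a, Clec10a and Ccr7. The count was 0 without wild-type mouse 2 and 1 without wild-type mouse 1, Rag1-/- mouse 2 or 4, or Rag2-/- mouse 1 or 2. Of 13 complement and acute phase genes 4 were called lower, among them C1s1 (change -0.99, SE 0.21, adjusted p = 0.00171), and 2 without wild-type mouse 1. Of 15 neutrophil genes tested only Cxcl5, a chemokine that attracts neutrophils, was called, and it was lower. Cxcl5 went from 2.74, 3.2 and 3.2 CPM to 0 to 0.258 CPM, a ratio of 32.7 (15.9 to 81.3). The summed level of the neutrophil list went the other way (median change 0.40). It was 136 to 151 CPM in wild-type, 153 to 296 CPM in Rag1-/- and 214 to 343 CPM in Rag2-/- mice. With the untreated mice fitted alone, 8 neutrophil genes passed the filter on low counts, and 1 was called higher and 1 lower. A change in the others was not detectable at this depth.

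**Figure D3:**
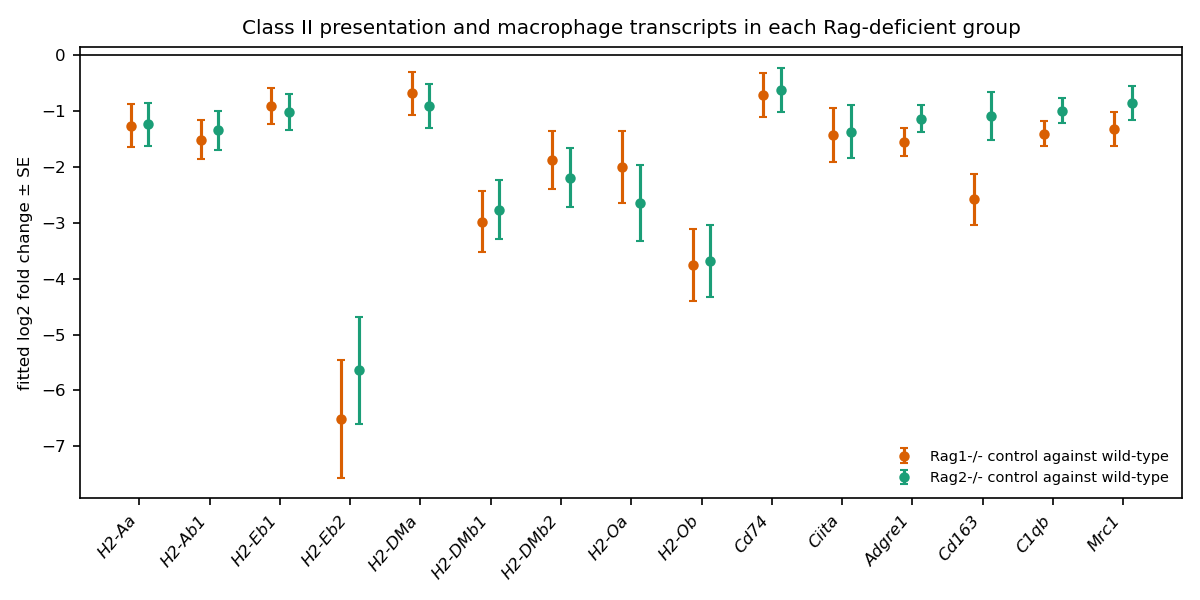
Fitted log2 fold change against wild-type with its SE for the 11 class II presentation genes and 4 macrophage genes, Rag1-/- in orange and Rag2-/- in green. All points lie below 0; H2-Eb2 and H2-Ob are lowest among class II genes, and Cd163 shows the widest gap between the groups among the macrophage genes (-2.58 in Rag1-/- and -1.09 in Rag2-/-).

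The tissue around the immune cells was not identical in the groups. The summed level of 12 smooth muscle genes was 7840 to 9506 CPM in wild-type, 4884 to 5880 CPM in Rag1-/- and 7291 to 7961 CPM in Rag2-/- mice. None of the 12 was called over the 6 mice and 1 was called lower in Rag1-/- mice alone, but 10 were lower with the 9 untreated mice fitted alone. The summed level of 12 fat and mesothelium genes was 56.3 to 99.0 CPM in wild-type, 176 to 278 CPM in Rag1-/- and 86.3 to 277 CPM in Rag2-/- mice, and 6 of the 12 were called higher (median change 1.43). The part of these tissues in the macrophage and epithelial results was not tested. Of 12 epithelium genes 2 were called higher, beside 4.66% of all genes, and of 13 enteric neuron and glia genes 0 were called.

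Adipocyte genes varied between mice, and the other 6 genes of the fat list were not called. Cidec, a protein of lipid droplets, was at 2.67, 1.27 and 2.30 CPM in wild-type mice, 6.16, 14.5 and 9.90 CPM in Rag1-/- mice and 3.63, 11.6 and 21.4 CPM in Rag2-/- mice (change 2.43, SE 0.50, adjusted p = 0.00133), and it kept its call with each mouse left out. Adipoq, the hormone adiponectin, was at 3.96, 1.60 and 4.18 CPM in wild-type mice, 16.8, 26.3 and 17.6 CPM in Rag1-/- mice and 3.01, 14.9 and 25.5 CPM in Rag2-/- mice, so that Rag2-/- mouse 1 lay within the wild-type range. Its call (change 2.41, SE 0.73, adjusted p = 0.0303) was lost without any 1 of 5 mice, the 3 wild-type mice among them (adjusted p up to 0.175). Of the 6 calls 1 to 3 were left without wild-type mouse 1, 2 or 4 or Rag2-/- mouse 4.

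Of 24 type I interferon response genes 8 were called higher, 0 lower and 16 not called, against 4.66% higher among all genes, with a median change of 1.33. Rtp4 stood at 9.07, 8.86 and 8.45 CPM in wild-type mice, 50.7, 25.0 and 34.6 CPM in Rag1-/- mice and 39.6, 27.8 and 29.2 CPM in Rag2-/- mice (change 1.97, SE 0.50, adjusted p = 0.00870). Oas3, a sensor that makes oligoadenylate, was at 1.14, 0.932 and 0.738 CPM against 5.23 to 21.3 CPM (change 3.86, SE 1.04, adjusted p = 0.0140). Zbp1, a sensor of Z-form nucleic acid, was at 8.38, 5.93 and 7.14 CPM against 17.8 to 50.6 CPM (change 2.30, SE 0.59, adjusted p = 0.00955). Isg15, the ubiquitin-like modifier, was at 2.82, 2.40 and 2.21 CPM against 11.9 to 24.3 CPM (change 2.69, SE 0.81, adjusted p = 0.0299).

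In these 4 genes every Rag-deficient mouse lay above every wild-type mouse, yet the test leaned on the number of wild-type mice: without wild-type mouse 1, 2 or 4 only 2, 1 or 2 of the 24 genes were called, and Rtp4 alone of the 4 kept its call throughout. With the 9 untreated mice fitted alone 20 of the 24 were called higher and 1 lower. Interferon-gamma response genes did not move with them, with 0 of 25 called and a median change of 0.08, and 3 higher and 4 lower in the fit of the 9 mice alone.

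Some epithelial genes rose. Of 27 antimicrobial and defence genes 5 were called higher, beside 4.66% of all genes, and 0 lower (median change 0.77). Only 2 or 3 were called higher without any 1 of the wild-type mice, Rag1-/- mouse 4 or Rag2-/- mouse 2. Saa2, an acute phase protein, was at 0.533, 0.266 and 0.328 CPM in wild-type and 1.69 to 5.14 CPM in Rag-deficient mice (change 3.08, SE 0.39, adjusted p = 2.80e-06). Reg3b, a bactericidal lectin, was not called over the 6 mice (adjusted p = 0.429): it stood at 0.0762, 0 and 0 CPM in wild-type mice, at 7.05, 0.368 and 28.7 CPM in Rag1-/- mice and at 0.0765 to 0.266 CPM in Rag2-/- mice. Its call in Rag1-/- colon alone (adjusted p = 0.0207) was lost without any wild-type mouse or without Rag1-/- mouse 4 (adjusted p up to 0.162).

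Cdx2 (chr5:147300805-147307270), the transcription factor that sets intestinal identity, stood at 3.89, 4.33 and 8.12 CPM in wild-type mice, 73.4, 76.5 and 93.1 CPM in Rag1-/- mice and 29.3, 56.6 and 38.1 CPM in Rag2-/- mice. Every Rag-deficient mouse lay above every wild-type mouse (change 3.42, SE 0.82, adjusted p = 0.00579). Zg16, a lectin of the mucus that binds bacteria, was at 1010, 899 and 1014 CPM against 1626 to 2075 CPM (change 0.96, SE 0.26, adjusted p = 0.0140), a call that was lost without wild-type mouse 1 or 2 (adjusted p up to 0.0833). Muc2, the main secreted mucin, was at 753, 724 and 719 CPM against 823 to 1518 CPM and was not called (adjusted p = 0.124). Slc9a3, a sodium and proton exchanger of absorptive cells, was at 1.22, 1.73 and 1.56 CPM against 10.8 to 36.0 CPM (change 3.99, SE 1.00, adjusted p = 0.00829), and missed the threshold without wild-type mouse 1 (adjusted p = 0.0526).

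Among crypt genes, Axin2, a target and brake of Wnt signalling, stood at 21.9, 21 and 28.2 CPM in wild-type mice, 58.8, 52.5 and 54.6 CPM in Rag1-/- mice and 38.4, 37.3 and 33.5 CPM in Rag2-/- mice (change 0.92, SE 0.16, adjusted p = 0.000196). Rnf43, another brake of the pathway, went from 38.2, 35.8 and 41.2 CPM to 51.8 to 61.6 CPM (change 0.54, SE 0.11, adjusted p = 0.00155). Tnfrsf19 moved the other way, from 17.0, 18.6 and 12.9 CPM to 2.76 to 5.97 CPM (change -1.70, SE 0.31, adjusted p = 0.000317). Of 12 stem cell and Wnt genes 3 were called higher and 1 lower, beside 4.66% and 7.04% of all genes, and the median change was -0.00. Gcg, the proglucagon gene of L cells, was at 21.4, 18.3 and 22.6 CPM against 39.7 to 54.6 CPM (change 1.23, SE 0.24, adjusted p = 0.000870). Of 18 proliferation genes only Pcna was called, lower (change -0.62, SE 0.15, adjusted p = 0.00522).

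Of 17 xenobiotic and AhR target genes 1 was called higher and 1 lower, beside 4.66% and 7.04% of all genes, and with the 9 untreated mice fitted alone 1 was higher and 7 lower. Gsta4, a glutathione transferase, went from 37.0, 38.2 and 45.1 CPM to 122 to 155 CPM (change 1.77, SE 0.22, adjusted p = 2.49e-06), and Cyp3a13, a cytochrome P450, went from 159, 141 and 135 CPM to 25.2 to 69.6 CPM (change -1.80, SE 0.19, adjusted p = 1.46e-07). No mouse of 1 group crossed into the other for either gene.

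**Figure D4:**
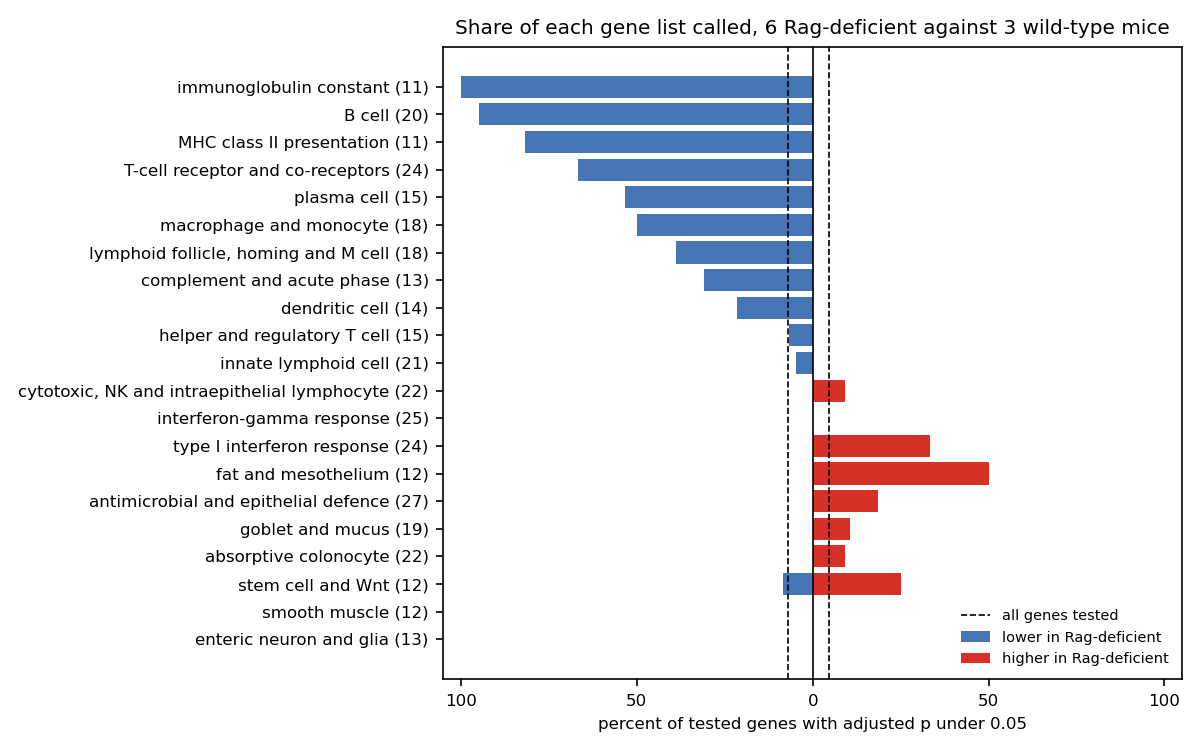
Percent of each list's tested genes (number in brackets) called lower, to the left in blue, or higher, to the right in red, in 6 Rag-deficient against 3 wild-type mice at adjusted p under 0.05. Dashed lines mark all genes tested, 7.04% lower and 4.66% higher; the lists of immunoglobulin constant genes (11 of 11) and B cells (19 of 20) reach furthest to the left, and fat (6 of 12) and type I interferon (8 of 24) furthest to the right.

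Outside the antigen receptors the largest differences held lymphocyte genes among the falls only. The 10 largest rises by fold change were H2-Ea-ps, Gm42743, Hist1h2al, Gm4858, Ifi202b, Gm454, Gm21850, Gm9625, Gm11127 and Gm9347, of which 3 are annotated as processed pseudogenes. Gm9625 went from 0.305, 0.400 and 0.246 CPM to 65.6 to 85.2 CPM (change 7.81, SE 0.23, adjusted p = 2.08e-18). Ifi202b, an interferon-inducible DNA sensor that C57BL/6 mice express poorly, had no count in wild-type mice and stood at 1.95 to 3.78 CPM in Rag-deficient mice, at least 13.1-fold higher. Ifi44l, among the largest rises in Rag2-/- mice alone, likewise went from no count to 0.918 to 2.42 CPM, at least 6.66-fold higher. The 10 largest falls mixed B-lineage genes, Jchain, Fcmr, Fcer2a and Mzb1 among them, with Gm8979, Trim12a, Gm43305, Wnt8b and Btnl6. Btnl6, a butyrophilin-like gene beside the class II region (chr17:34507804-34517352), went from 53.7, 54.3 and 59.1 CPM to 0.0811 to 0.378 CPM (change -8.01, SE 0.34, adjusted p = 2.92e-15). Trim12a, a TRIM gene with near-identical neighbours, went from 30.7, 29.7 and 30.6 CPM to 1 count in all 6 mice, a ratio of 2279 (409 to 90024). Its neighbour Trim5 went from 7.70, 7.73 and 7.71 CPM to 2 counts, a ratio of 290 (80.2 to 2392), and in TCT mice Trim12a was at 39.1 to 62.0 CPM and Trim5 at 11.8 to 15.9 CPM.

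Lpo (chr11:87806428-87828289), which encodes lactoperoxidase and was chosen after its values were seen, was low in wild-type colon and high in both Rag-deficient groups. It stood at 5.64, 5.79 and 3.53 CPM in wild-type mice, 873, 751 and 656 CPM in Rag1-/- mice and 588, 610 and 591 CPM in Rag2-/- mice (change 7.07, SE 0.38, adjusted p = 3.28e-13). In TCT mice, which shared the low H2-Ea-ps level of the wild-type mice, it was at 9.26 to 12.4 CPM.

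Of 18 class I and immunoproteasome genes 2 were called higher and 3 lower, beside 4.66% and 7.04% of all genes, and 13 were not called. H2-K1, a classical class I heavy chain, stood at 995, 1027 and 1146 CPM in wild-type mice and at 69.2 to 88.8 CPM in Rag-deficient mice (change -3.78, SE 0.21, adjusted p = 5.39e-13), while H2-Q4 went from 31.2, 31.2 and 43.2 CPM to 93.0 to 146 CPM (change 1.87, SE 0.37, adjusted p = 0.000811). In TCT mice H2-K1 was at 2167 to 3319 CPM. The class I genes are near-identical and differ between haplotypes, so reads may be assigned to the wrong member, and these changes are uncertain.

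Of 894 processed pseudogenes tested 111 were called higher (12.4%) and 41 lower, whereas 689 of 15327 protein-coding genes were called higher (4.50%) and 979 lower. A pseudogene was paired with the gene whose transcripts shared the most of its 50-base windows, with at least 10% shared. Of the 111 that rose, 98 had such a parent, which was called lower for 43, higher for 9 and not called for 46. Of the 41 that fell, 34 had a parent, which was lower for 23, higher for 1 and not called for 10. Over all 788 tested pseudogenes with a parent, the parent was lower for 150 and higher for 18. Gm15772, which shares 74.3% of its windows with the ribosomal protein gene Rpl26, went from 15.5, 14.2 and 14 CPM to 335 to 427 CPM, while Rpl26 went from 366, 354 and 364 CPM to 9.28 to 14.7 CPM. Their sum, 381, 368 and 378 CPM in wild-type and 344 to 441 CPM in Rag-deficient mice, overlapped. For Rpl3-ps1 and Rpl3 (91.4% shared) the sum overlapped too, at 885, 899 and 888 CPM against 771 to 951 CPM. For Gm13394 and Gapdh (94.7% shared) it did not: 85.3, 96.2 and 104 CPM against 507 to 550 CPM. These 3 pairs were chosen after their values were seen.

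The TCT mice were placed beside these groups because they were Rag-deficient by label, had received CD4 T cells and no B cells, and had the low H2-Ea-ps level of the wild-type mice. This comparison was added after the data were examined. Genes were taken that were called between the untreated groups and did not overlap between 13 mice with an intact Rag system (wild-type, DSS, DNBS and IL-10 deficiency) and 13 Rag-deficient mice without transferred cells (Rag1-/-, Rag2-/-, TRUC and anti-CD40). Over all genes tested 1.79% were lower and 1.12% higher without overlap. Of 311 falls, the 3 TCT mice lay with the intact mice for 184 (59.2%), with the Rag-deficient mice for 77 (24.8%) and between or split for 50 (16.1%). Of 200 rises they lay with the intact mice for 164 (82%), with the Rag-deficient mice for 0 and between or split for 36 (18%).

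The 77 falls that the TCT mice shared with the Rag-deficient mice were 66 antigen receptor genes and 11 others, among them A530030E21Rik, Blk, Cd59a, Cd79a, Chst3, Cr2, Fcmr, Jchain, Mzb1 and Pax5, of which those outside the lists were named after their values were seen. Most of the 11 are defining B-cell and plasma-cell genes. Fcmr had no count in the 3 TCT mice, and Jchain was at most 0.0927 CPM. Of the 13 B-cell genes that met the rule, TCT mice lay with the Rag-deficient mice for 6, between for 6 and with the intact mice for Cd37. The 6 T-cell genes that met it, Cd3d, Cd3e, Cd5, Cd6, Lat and Trac, all lay with the intact mice: Cd3d was at 12.5 to 29.3 CPM in TCT mice, which had received CD4 T cells. TCT mice differed from the untreated Rag-deficient mice in colitis, in the transferred cells and in the H2-Ea-ps level at once, and these cannot be told apart.

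Between the Rag-deficient groups the count of calls depended on the fit. Of 18616 genes 23 differed between them (0.124%), 13 higher (0.0698%) and 10 lower (0.0537%) in Rag1-/- than in Rag2-/- mice, and 2275 had an unadjusted p below 0.05. With the 9 untreated mice fitted alone 429 were higher and 455 lower, with only these 6 mice 206 and 212, and with DESeq2 785 and 707. Since the wild-type mice cancel in this contrast, it also tests whether the groups differed from wild-type by different amounts. The genes with the largest differences belong to the circadian clock, in which ARNTL drives the PER, CRY, REV-ERB and PAR-bZIP genes that feed back on it over the day. Dbp, a PAR-bZIP output factor, stood at 2.68, 3.39 and 1.55 CPM in Rag1-/- mice, 44.4, 30.5 and 50.8 CPM in Rag2-/- mice and 3.35, 2.06 and 5.58 CPM in wild-type mice (Rag1-/- against Rag2-/- -4.03, SE 0.51, adjusted p = 0.000172). Nr1d1 (REV-ERB alpha) was at 14.6, 12.2 and 9.29 CPM, 164, 108 and 204 CPM, and 50.6, 40.5 and 88.9 CPM in the same order (-3.72, SE 0.45, adjusted p = 0.000164). Wild-type mice lay with Rag1-/- mice for Dbp and between the groups for Nr1d1.

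Of 10 clock genes in the phase of Dbp 4 were called lower in Rag1-/- than in Rag2-/- mice, and of 6 in the phase of Arntl 2 were called higher. Arntl was at 68.0, 71.5 and 73.2 CPM in Rag1-/- mice, 21, 27.4 and 24.7 CPM in Rag2-/- mice and 80.9, 84.1 and 70.7 CPM in wild-type mice (1.54, SE 0.19, adjusted p = 0.000164), and Cry1 was at 33.6, 28.4 and 42.3 CPM, 7.17, 7.27 and 11.4 CPM, and 22.8, 36.3 and 21.3 CPM (2.01, SE 0.28, adjusted p = 0.000785). E2f2, a cell cycle factor, was higher in Rag1-/- mice by 1.88 (SE 0.24, adjusted p = 0.000172). Dbp, Nr1d1, Nr1d2, Arntl, Cry1 and E2f2 kept their calls with each mouse left out. The time of day at which tissue was taken is not given in the sources used here. The labels give these groups different strains, yet 0 of the 7 strain genes tested were called between them (median change -0.25). Against wild-type, 4 of the 7 were called higher and 1 lower in each group. None of the lymphocyte genes described above differed between the Rag-deficient groups, although B-cell genes at or near 0 in both leave no room for a difference at this depth.

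**Figure D5:**
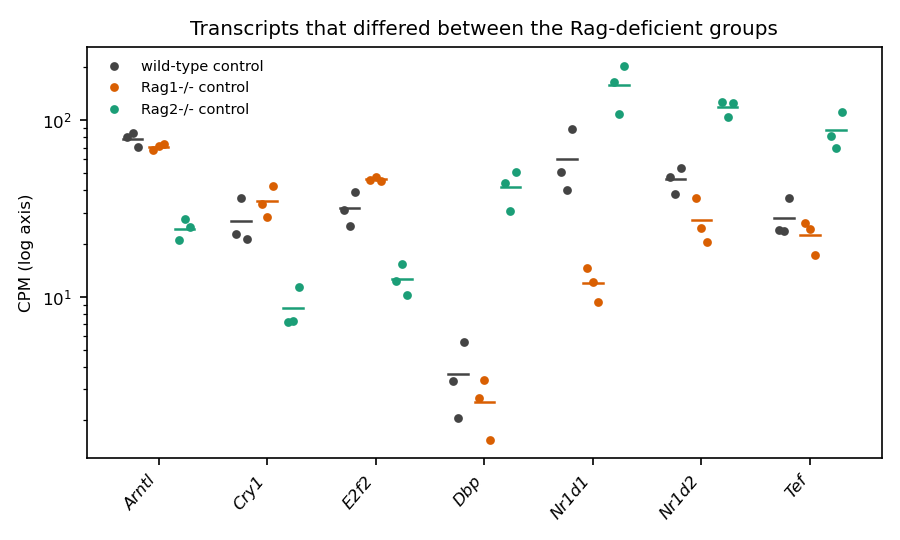
CPM of 7 transcripts that differed between Rag1-/- (orange) and Rag2-/- (green) mice, with wild-type mice in grey, on a log axis; points are mice and bars group means. Arntl, Cry1 and E2f2 are higher and Dbp, Nr1d1, Nr1d2 and Tef lower in Rag1-/- mice, with Dbp at 1.55 to 3.39 CPM in Rag1-/- and 30.5 to 50.8 CPM in Rag2-/- mice.

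Taken singly, each Rag-deficient group gave the lymphocyte result. Of the 20 B-cell genes 18 were called lower in Rag1-/- and 18 in Rag2-/- colon, beside 6.18% and 4.86% of all genes. Of the 24 T-cell receptor genes 12 and 13 were lower, of the 11 class II genes 7 and 7, and of the 15 plasma-cell genes 8 and 5. Macrophage genes were called lower for 9 of 18 in Rag1-/- and 3 of 18 in Rag2-/- colon. Type I interferon genes were called higher for 6 and 5 of 24, beside 4.77% and 3.25% of all genes. Both counts share the 3 wild-type mice, and for none of the macrophage or interferon genes did the Rag-deficient groups differ by their own test.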

How the data were processed

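RNA from colon segments of 29 mice was sequenced as poly(A) libraries. The authors deposited 1 table of raw counts per gene (54532 genes and 92 spike-in controls, the latter all at 0), and the submitters' processing notes name Trimmomatic, HISAT2, HTSeq and GRCm38. Versions, settings and whether strand was used in counting are not given in the sources used here, so overlapping and antisense genes cannot be told apart. No deposited column was left out. Total counts were 10725564 to 14977094 per mouse.

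Genes whose counts averaged 3 or more across the mice (18616) were tested with edgeR 4.0.16 (TMM, quasi-likelihood, R 4.3.3) in 1 fit of all 9 groups, so that the spread is shared across groups, with Benjamini-Hochberg adjustment at 0.05. The pooled contrast set the mean of both Rag-deficient groups against wild-type. The SE was taken from the fitted change and its F statistic. A gene with no count in a group was given a bound at a floor of 3 counts per library, and one with few counts a ratio with an exact Poisson 95% interval, which covers counting error only. Coordinates and gene types are GENCODE on GRCm38, and promoter sequences are RefSeq. P-values measure the spread between these mice. The scripts were tested on simulated data.

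Members, gene lists and tests were chosen with earlier results of these data known. Beyond the lists, the strain and sex genes, Rag1 and Rag2, the genes named are the 10 with the largest fitted change in each direction and comparison among called genes whose mice did not overlap and whose higher group averaged at least 1 CPM, leaving out antigen receptor genes. Any other gene was chosen after its values were seen. Alternatives were other scalings, filters, fits of fewer mice, DESeq2 1.42.0, a replicate block, a stricter threshold and each untreated mouse left out. The placing of TCT mice and the pairing of pseudogenes with parents were added after seeing the data.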

Additional observations from a re-analysis of the deposited data

Results flagged for a closer look

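Rag1-/- and Rag2-/- mice differed from the same wild-type mice by different amounts for 23 genes by the test of the difference itself (edgeR's quasi-likelihood test, adjusted p under 0.05). On the log2 scale, Rag1-/- against Rag2-/-, the difference was 2.01 for Cry1, 1.88 for E2f2, 1.54 for Arntl, 1.2 for Espl1, 0.95 for Fam69a, 0.88 for Wdr90, 0.82 for Megf9, 0.74 for Slc22a15, 0.71 for Zfp821 and 0.71 for Samd1, and 3 further genes were higher by less. It was -4.03 for Dbp, -3.72 for Nr1d1, -2.13 for Nr1d2, -1.96 for Tef, -1.54 for Crry-ps, -0.77 for Lrrc49, -0.76 for Rrm2b, -0.66 for Exoc6, -0.58 for Nhlrc2 and -0.43 for Mbnl1. Cry1, E2f2, Arntl, Dbp, Nr1d1 and Nr1d2 kept their calls with each mouse left out, and Mbnl1 lost its call without any 1 of the 9 mice. Groups of 3 mice were not examined for single outlying mice.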

How the results depend on the processing

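No result reversed its direction under any alternative. Of 214 named results, 146 kept direction and call with each mouse left out. With the 9 untreated mice fitted alone, the Rag-deficient mice had 1650 genes higher and 2256 lower than wild-type, and the fit of only the groups compared is the same fit. DESeq2 gave 1764 and 2066, and an adjusted p under 0.01 gave 474 and 842. For Rag2-/- against wild-type the 9 mice alone gave 1371 higher and 1791 lower, only the groups compared 1626 and 2087, DESeq2 1440 and 1718, and 0.01 gave 345 and 531. For Rag1-/- against wild-type the same settings gave 1712 and 2158, 1567 and 2090, 1892 and 2028, and 470 and 648. For Rag1-/- against Rag2-/- they gave 429 and 455, 206 and 212, 785 and 707, and 4 and 4. In that comparison RLE size factors gave 23 higher, upper quartile scaling 5 higher, and no filter on low counts 6 higher and 4 lower. The cause of these shifts was not tested.

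With 1 mouse left out, 472 to 789 genes were higher and 926 to 1271 lower in Rag-deficient mice, 379 to 575 and 580 to 902 in Rag2-/-, and 504 to 863 and 791 to 1128 in Rag1-/-. For Rag2-/- 379, 385 and 384 were higher without wild-type mouse 1, wild-type mouse 2 and Rag2-/- mouse 2, and 580 were lower without Rag2-/- mouse 2. For Rag1-/- 504, 512 and 520 were higher without wild-type mouse 1, wild-type mouse 2 and Rag1-/- mouse 4. Rag1-/- against Rag2-/- gave 3 to 72 higher and 3 to 73 lower, the most without Rag1-/- mouse 2.

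Same-numbered mice were not seen to deviate together (r -0.107 to 0.104 over 7 pairs, against -0.102 to 0.123 over 20 pairs with different numbers). Each group's mean was taken out first, and with 7 such pairs a weak pairing could be missed. A replicate block on the 9 mice gave 1393 higher and 2045 lower in Rag-deficient mice, 1315 and 1762 in Rag2-/- mice, and 64 and 68 between the Rag-deficient groups, and 13 of 212 named results lost their call.

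The comparison with wild-type rests on 3 wild-type mice, and neither their background nor the time of sampling can be told apart from their genotype. Genes under about 0.2 CPM, most T-cell receptor V segments among them, are below what this depth can compare.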

Other observations

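Counts for other cell types of the colon depended on the fit, and 4.66% of all genes were called higher in the fit of all mice. Of 19 goblet cell genes 2 were called higher, Zg16 and Spdef, 0 without wild-type mouse 1 or 2 and 1 without wild-type mouse 4 or Rag2-/- mouse 4. Of 22 absorptive cell genes 2 were higher, 0 without wild-type mouse 1, and of 23 lipid metabolism genes 2 were higher, 1 without wild-type mouse 1. With the 9 untreated mice fitted alone 10 of the 19 goblet genes were higher, 8 of the 22 absorptive genes higher and 4 lower, and 12 of the 23 lipid genes higher. None of 12 mast cell, eosinophil and basophil genes was called, and 1 of 10 tested was higher in the fit of the 9 mice alone.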
